A study of Drosophila melanogaster with 8 samples.

Results

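The cytoplasmic ribosomal protein genes were followed over the nuclei of whole Drosophila melanogaster larvae. They were chosen by name, as every gene of the deposited matrix whose symbol starts with RpL or RpS and a digit. RpLP0, RpLP1 and RpLP2 were added. No measured value entered this rule, but earlier results of these data were known when it was set. This gave 89 of the 12610 genes, 52 of the large and 37 of the small ribosomal subunit. The data were single-nucleus RNA sequencing of w1118 larvae, with no transgene and no treatment, raised at 25 °C and taken as wandering larvae of the last larval stage 5 days after egg deposition. All 8 libraries belonged to this 1 group, and each came from a pool of 16 animals, 8 males and 8 females, so that a library is a replicate and single larvae cannot be told apart. The matrix held 30819 nuclei, 3090 to 5405 per library, with 3815620 to 6488760 UMIs per library and a median of 946 UMIs per nucleus. The authors sorted the nuclei into 28 clusters and named them by tissue, with 8 of them named mixed.

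A ribosome is built from ribosomal RNA and 1 copy of most of its proteins, so the genes of both subunits are usually expressed together at matched levels, and their mRNAs are among the most abundant of growing cells. In the larval fly the fat body, which stores nutrients and makes the serum proteins, and the gut grow by endoreplication, while imaginal discs grow by cell division. Many ribosomal protein genes of the fly are known as Minute genes, whose loss of 1 copy slows development. A nucleus holds newly made and departing mRNA, together with cytoplasmic mRNA that stays attached to it or comes with it. Counts encoded by the mitochondrial genome are therefore given beside the ribosomal protein values.

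All 89 genes matched the BDGP6 annotation, 87 by symbol and 2 by an older name. They lay on every large chromosome arm, with 18 genes on 2L, 20 on 2R, 14 on 3L, 22 on 3R, 14 on X and 1 on chromosome 4. Over all nuclei 82 of them reached 10 CPM (a gene's share of all corrected counts times 1000000), and the median member stood at 778 CPM. The level was high for most of them, since 78 members had 310 CPM or more. The 5 highest were RpL27A at 1281, RpLP1 at 1194, RpS3A at 1194, RpL19 at 1184 and RpS7 at 1175 CPM. In 28 members a small nucleolar RNA gene lies inside the gene, 7 overlap another gene on the same strand and 27 overlap one on the other strand. Counts of overlapping genes may be shared, and this was not tested.

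Together the 89 genes took 6.56% of all corrected counts. Every nucleus had some count of a member, and the share in the median nucleus was 2.98%, with 1.54% at the lowest decile and 22.6% at the highest. The counts of the members were spread unevenly over the tissues. The 3 fat body clusters held 11.1% of the nuclei and 10.7% of all counts, but 31.4% of the ribosomal protein counts. The enterocyte cluster held 6.67% of the nuclei, 4.13% of all counts and 14.1% of the ribosomal protein counts, but 1508 of its 2055 nuclei came from library 4, where its share was 28.6%, against 3.02% to 8.20% in the other libraries. The 5 imaginal disc clusters went the other way, with 31.1% of the nuclei, 28.5% of all counts and 10.2% of the ribosomal protein counts, and so did the 5 neuron clusters, with 13.2% of the nuclei and 3.62% of the ribosomal protein counts.

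The libraries stood apart in tissue makeup before any comparison of clusters. Over whole libraries the ribosomal protein share was 5.03% in library 1, 3.05% in library 2, 5.01% in library 3, 11.2% in library 4, 5.67% in library 5, 7.38% in library 6, 6.02% in library 7 and 6.39% in library 8. Library 4 was high and library 2 low. In library 4 the enterocyte cluster held 27.9% of the nuclei, against 0.642% to 4.32% in the others, and in library 2 the fat body clusters held 0.444% of the nuclei, against 9.43% to 16.0% in the others. With the 22 clusters present in all libraries weighted equally, the share ran from 3.48% in library 5 to 5.83% in library 4. Nuclei whose barcode also occurred in another library made up between 0.160% and 39.3% of a cluster, with 5.87% to 39.3% in the mixed clusters.

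The share of the members was next compared between clusters, with the library as the replicate and all other nuclei of the same library as the comparison. The question was whether tissues of the larva differ in how much of their nuclear RNA comes from these genes. It was higher than in the other nuclei in 6 clusters, lower in 15 and on neither side in 7 (exact sign-flip permutation test over libraries, two-sided, adjusted over 28 clusters, threshold 0.05). With 8 libraries the smallest unadjusted p this test can give is 0.00781, and with 6 it is 0.0313. The clusters were made by the authors from the same counts, so these p-values describe how steadily a cluster kept its side over the libraries and are no independent evidence that the clusters exist.

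Nuclei of fat body clusters 4 and 13 had the highest shares. In fat body cluster 4 the share was 21.2% in library 1, 22.8% in library 3, 22.6% in library 4, 23.3% in library 5, 24.002% in library 6, 23.8% in library 7 and 23.8% in library 8, with a mean of 23.1% ± 0.979 (SD, n = 7). The other nuclei of those libraries had 4.33% to 10.9%, so that the groups did not overlap. The difference was 17.0 ± 2.48 percentage points, higher in 7 of 7 libraries (exact permutation adjusted p = 0.0230). Fat body cluster 13 had 20.6% ± 2.35 (SD, n = 7), from 16.9% to 22.6% with a median of 22.0%, which was 14.6 ± 3.97 points above the other nuclei (7 of 7 libraries, exact permutation adjusted p = 0.0230). The third fat body cluster, 15, stood lower, at 11.8% ± 2.14 (SD, n = 7), from 8.15% to 14.6%, a difference of 5.26 ± 2.77 points (7 of 7, exact permutation adjusted p = 0.0230). Its counts of fat body marker genes varied widely between libraries, as given below with the marker lists.

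In the gonad cluster the share was 19.9% in library 1, 13.9% in library 2, 20.5% in library 3, 23.4% in library 4, 20.96% in library 6 and 8.46% in library 7, which gave 17.9% ± 5.57 (SD, n = 6). Library 7, with 12 gonad nuclei, was the lowest and still above its other nuclei at 6.01%. The difference of 11.8 ± 4.89 points was positive in 6 of 6 libraries (exact permutation adjusted p = 0.0417), and it no longer passed without any 1 of these libraries, where 5 are left (values of 10.9 to 13.6 points, adjusted p of 0.0795 to 0.0833), as the test then has fewer libraries. Mixed cluster 16 ranged widely, from 5.74% to 23.9% with a median of 15.1%, and mixed cluster 22 from 6.20% to 18.4% with a median of 10.6%. Both were above the other nuclei in 8 of 8 libraries, by 8.59 ± 6.84 and 4.72 ± 3.97 points (exact permutation adjusted p = 0.0146 each).

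**Figure D1:**
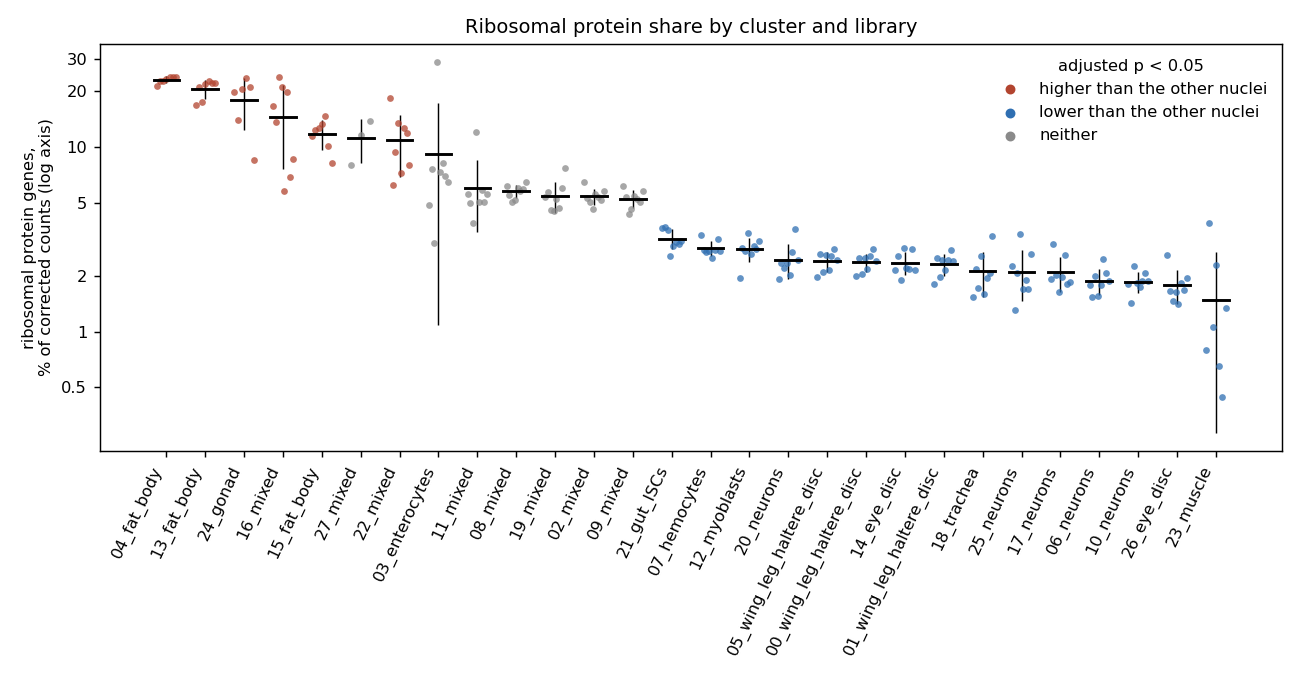
Share of corrected counts from the 89 ribosomal protein genes (log axis, %) in each of the 28 clusters, ordered by the mean; each point is 1 library, the bar is the mean over libraries and the line 1 SD to either side. The fat body clusters 4 and 13 stand at 23.1% and 20.6%, a band of mixed clusters lies between 5% and 6%, and all disc, neuron, hemocyte and myoblast clusters lie at 2.84% or less.

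Cells of the discs, the nervous system and the muscle were at the other end. The 5 disc clusters had mean shares of 1.79% to 2.41% and the 5 neuron clusters 1.87% to 2.46%. Hemocytes, the blood cells of the fly, had 2.84% ± 0.270, myoblasts 2.80% ± 0.414, gut intestinal stem cells (ISCs) 3.18% ± 0.398 and trachea 2.12% ± 0.584 (SD, n = 8 each). In 13 of these 15 clusters the share was lower than in the other nuclei in 8 of 8 libraries (exact permutation adjusted p = 0.0146). The ISC cluster was lower in 7 of 8 (adjusted p = 0.0230 in the same exact test). The differences of the 15 clusters ran from -3.09 to -4.84 percentage points.

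Muscle had the lowest mean and the widest relative spread of these. Its share was 0.795% in library 1, 3.85% in library 2, 1.06% in library 3, 2.30% in library 4, 0.650% in library 5, 0.445% in library 6 and 1.34% in library 8, with a mean of 1.49% ± 1.21 (SD, n = 7). Library 2 was the one library in which it lay above the other nuclei, which had 3.05% there. The difference of -4.84 ± 3.02 points (exact permutation adjusted p = 0.0417) lost its call without any 1 of libraries 1, 3, 4, 5, 6 and 8 (adjusted p of 0.0795 to 0.0833), with a library fewer in the test. When a cluster needed 30 nuclei in a library instead of 10, the calls of fat body cluster 15, muscle, gonad and neuron cluster 25 ended (adjusted p = 0.0804 each). The test then had fewer libraries, and the differences were 5.56, -6.15, 13.6 and -3.73 points in that order.

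Between the extremes stood 6 clusters of 5.24% to 9.13% that were on neither side, and mixed cluster 27 with 11.1% in 3 libraries, where the smallest p the test can give is 0.250. The enterocytes, the absorptive cells of the gut, had 4.84% in library 1, 7.63% in library 2, 3.02% in library 3, 28.6% in library 4, 7.34% in library 5, 8.20% in library 6, 6.95% in library 7 and 6.47% in library 8. Library 4 alone was far above the rest, and it held 1508 of the 2055 enterocyte nuclei, against 21 to 189 in each other library. The mean of 9.13% ± 8.04 (SD, n = 8) fell to 6.35% without it. The difference from the other nuclei was 3.38 ± 7.39 points, positive in 6 of 8 libraries (exact permutation adjusted p = 0.229), and 0.850 points without library 4. Against other nuclei without the fat body clusters it was 4.95 points and passed (exact permutation adjusted p = 0.0219, chosen after seeing the data).

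Clusters next to each other in this order were compared in the same way. None of the 27 neighbouring pairs passed after adjustment, and the smallest unadjusted p was 0.00781 (exact permutation adjusted p = 0.211), for mixed cluster 9 above ISCs by 2.05 ± 0.606 points in 8 of 8 libraries. Fat body cluster 4 was above cluster 13 by 2.49 ± 1.52 points in 7 of 7 libraries, which also did not pass (exact permutation adjusted p = 0.211). A test of 27 pairs with 8 libraries or fewer can pass only if several pairs reach the smallest p together, so these neighbours are not shown to be alike.

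The share of mitochondrially encoded counts moved with the ribosomal protein share. It was 9.51% of counts in fat body cluster 4, 6.67% in cluster 13, 1.94% in cluster 15, 1.65% in the gonad and 1.08% in mixed cluster 16, and it lay between 0.415% and 9.51% in the 6 clusters called higher and between 0.0825% and 0.155% in the 15 called lower, without overlap. Nuclei with no mitochondrial count at all were 0% to 2.30% of the former and 6.5% to 10.9% of the latter. Over the 28 clusters the Spearman correlation of both shares was 0.789, and over the 8 libraries within a cluster it was above 0 in 22 of the 22 clusters with all libraries, with a median of 0.762 and a range of 0.238 to 0.905. These are descriptions of points that share libraries and depth. Restricted to nuclei with no mitochondrial count, a choice made after seeing the data, no cluster kept a call in either direction. Neuron clusters 17 and 20 and muscle then had too few libraries for a test, so their calls had to end. None of the clusters called higher had enough such nuclei for a value, and the 15 called lower kept 6.5% to 10.9% of theirs. The differences of the latter shrank, from -4.26 to -0.13 points in disc cluster 0 and from -4.01 to -0.13 in disc cluster 5. In eye disc cluster 14 the change was from -3.95 to -0.15. In 4 clusters the difference turned positive, among them neuron clusters 17 and 20, which could not be tested. The comparison nuclei were restricted in the same way, which left at most 2.30% of the nuclei of each cluster called higher. These differences were thus taken against other nuclei than before, and they do not tell whether the share within a cluster changed. The part of cytoplasmic RNA in the order of the clusters was not tested.

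**Figure D2:**
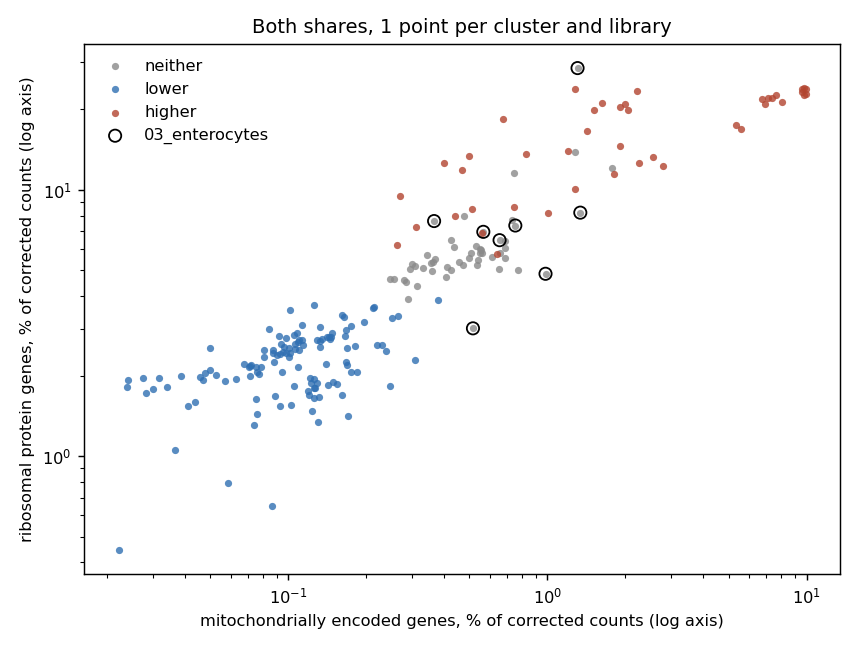
Ribosomal protein share against the share of mitochondrially encoded genes, both in % of corrected counts on log axes; each point is 1 cluster in 1 library, coloured by the call of its cluster, with the enterocyte points ringed. The 15 clusters called lower fill the lower left, with mean mitochondrial shares of at most 0.155%, and the fat body clusters 4 and 13 the upper right.

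Depth and the markers of other tissues were set beside the shares as well. Median UMIs per nucleus were 594 to 1703 in the clusters called higher, 694 to 1429 in those called lower and 492 to 2743 in the rest, and their Spearman correlation with the share over clusters was -0.149. Within clusters and libraries, nuclei above the median UMI count had 5.96% ± 1.11 and those at or below it 6.26% ± 0.968 (SD, n = 8, 203 sets weighted equally by cluster), a difference of -0.30 ± 0.298 points with the deeper nuclei higher in 1 of 8 libraries (exact permutation p = 0.0313). By cluster the difference went both ways, from -2.85 points in fat body cluster 15 to 1.25 points in fat body cluster 13. No single cluster passed (smallest exact permutation adjusted p = 0.105), which would need several clusters at the smallest p together. The 6 fat body markers took 0.501% to 15.7% of counts in the clusters called higher, 0.133% to 0.276% in those called lower and 0.396% to 1.92% in the rest. Part of this is the fat body itself, and free fat body RNA in other nuclei was not tested.

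The names of the clusters were checked against marker lists. As means over libraries, the lists were highest in the cluster of their name for fat body (15.7% in cluster 13), enterocytes (0.436%), hemocytes (0.272%), gonad (0.0149%), eye disc (0.276% in cluster 14) and wing, leg and haltere disc (1.05% in cluster 0). The enterocyte list ran from 0.0466% in library 3 to 1.03% in library 1 of its cluster. In library 3 it was higher in the gonad cluster, at 0.109%. In fat body cluster 15 the fat body list ran from 4.09% to 20.7% over libraries, and the epidermis list from 0.0248% to 12.6%. The fat body list was lowest there in library 8 (4.09%, 28 nuclei) and library 7 (7.52%, 30 nuclei). These libraries also had the lowest ribosomal protein shares of that cluster, 8.15% and 10.05%. In clusters 4 and 13 the fat body list ran from 13.4% to 15.7% and from 14.5% to 16.3%. Whether all nuclei of cluster 15 are fat body was not tested. Other lists went elsewhere. The muscle list was highest in mixed cluster 11 (2.03%, against 1.98% in the muscle cluster), the stem cell list in disc cluster 5 (0.140%), the trachea list in disc cluster 5 (0.181%, against 0.0956% in trachea), the myoblast list in the muscle cluster (0.108%) and the neuron list in eye disc cluster 26 (1.14%). Among the neuron clusters the neuron list was lowest in cluster 20, at 0.0604%. The wing, leg and haltere disc list stood higher there, at 0.191%. Neuron cluster 17 had 0.141% of the neuron list and 0.113% of that disc list. The ISC, trachea and myoblast names, and that of neuron cluster 20, are therefore used here as the authors' labels only. The epidermis list stood at 20.96% in mixed cluster 2 and 20.6% in mixed cluster 9, and the salivary gland list at 3.17% in mixed cluster 27.

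In fat body clusters 4 and 13, mixed cluster 16 and the 15 low-share clusters, nearly all members went the way of the sum. Each cluster's counts were summed per library and tested against all other nuclei with edgeR's quasi-likelihood test, adjusted over all genes of the cluster. In fat body clusters 4 and 13, 81 of the 82 members tested were higher in each, where 21.6% and 23.5% of all genes were, with a median log2 fold change of 2.70 and 2.56 over the members and -0.92 and -0.87 over all genes tested. In mixed cluster 16, 81 of 82 were higher (33.5% of all genes, member median 1.26). Its count depended in part on the scaling. It was 68 with DESeq2's size factors and 61 with the TMM factors taken over all genes (member medians 0.83 and 0.82). In the 15 clusters with a low share, 81 or 82 members were lower in each, where between 33.4% and 70.4% of all genes were. These were 82 of 82 in disc clusters 0, 1 and 5 (43.3%, 43.4% and 43.9% of all genes lower), eye disc clusters 14 and 26 (39.4% and 50.4%) and muscle (70.4%), and 81 of 82 in hemocytes (38.3%), myoblasts (39.1%), trachea (34.1%) and ISCs (35.5%). Among neurons they were 82 of 82 in clusters 6, 17 and 25 (46.2%, 41.8% and 60% of all genes) and 82 of 83 in clusters 10 and 20 (47.1% and 33.4%). The member median of the 15 ran from -1.68 in hemocytes to -3.45 in muscle, where the median of all genes was -1.95.

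Over the 28 clusters the 2299 tests of members gave 489 higher and 1240 lower calls, which is 21.3% and 53.9% of them, against 15.5% and 39.1% of all 205529 tests. Of the 5 most abundant members, RpL27A rose in fat body cluster 4 by 2.65 (SE 0.23), RpL19 by 2.71 (SE 0.25), RpS7 by 2.59 (SE 0.23), RpS3A by 2.31 (SE 0.20) and RpLP1 by 2.14 (SE 0.25) on the log2 scale, with edgeR adjusted p of 1.01e-07 or below. In muscle RpL27A fell by 3.43 (SE 0.47) and RpS3A by 2.84 (SE 0.39). All log2 fold changes depend on the scaling of the sums. With DESeq2's size factors the median of all genes in cluster 4 was -1.80 in place of -0.92, the member median 1.88 in place of 2.70, and still 81 of 82 members were called higher.

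In the remaining clusters the count of calls turned on the scaling or on single libraries. In the gonad 73 of 83 members were higher (25.9% of all genes, member median 1.10), but 10 with the TMM factors taken over all genes, 29 without library 1, 41 without library 3 and 39 without library 6. The third fat body cluster, 15, had 58 of 82 higher and 0 lower (16.2% and 37.9% of all genes, member median 0.70), but 18 higher with the library as a replicate block, 0 among nuclei whose barcode occurs in 1 library only, and 0 to 23 without any 1 of its 7 libraries. Mixed cluster 2 had 53 members higher and 0 lower (30.5% and 33% of all genes), and 30 higher without library 1. Mixed cluster 9 had 50 and 0 (34.8% and 38.1% of all genes), and 21 to 30 higher without library 1, 2, 6 or 7. With DESeq2's size factors these became 3 higher and 3 lower in cluster 2, and 1 higher and 14 lower in cluster 9.

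Mixed cluster 19 had 0 higher and 10 lower (9.76% and 40.8% of all genes), 0 and 70 under the same size factors, 60 lower without library 5, 29 without library 8, 1 or 2 without libraries 3 or 4, and 5 with the block. Among the enterocytes 1 member was higher and 0 lower (13.8% and 3.94% of all genes), while 58 had an unadjusted p under 0.05, with a member median of 1.23, and without a library 0 to 14 were higher. Mixed cluster 8 had 8 higher and 1 lower (13.8% and 43.5% of all genes), 4 to 35 higher without a library (26 and 35 without libraries 3 and 4, 4 without library 1, 2 or 7), and 2 higher and 5 lower with DESeq2's size factors. Mixed cluster 11 had 2 and 2 (11.6% and 42.7% of all genes), and 0 to 4 higher and 0 to 6 lower without a library. Mixed cluster 22, above its other nuclei in share, had 1 and 1 (5.44% and 46.3% of all genes), 59 and 0 on library totals without scaling, 0 and 1 with DESeq2's size factors, and 0 to 1 higher and 0 to 12 lower without a library (12 lower without library 4). Cluster 27 with 3 libraries had 0 in each direction, also at an unadjusted p under 0.05 (1.19% of all genes higher and 11.1% lower).

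**Figure D3:**
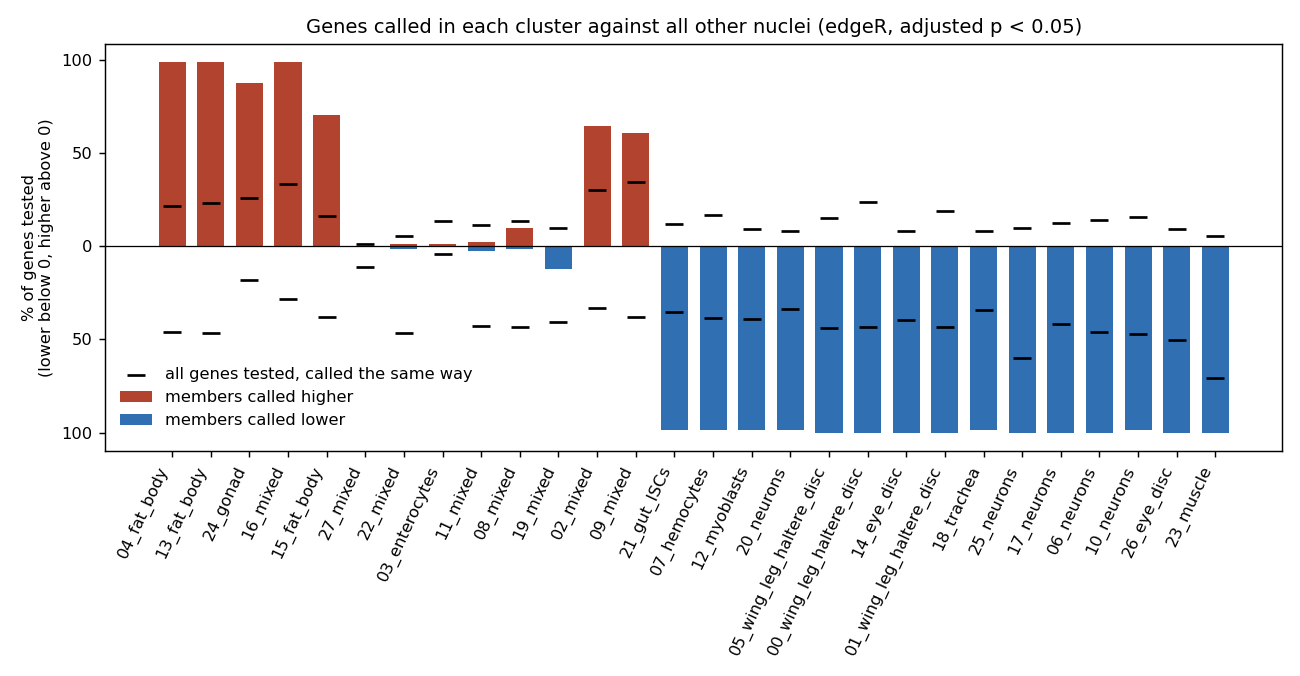
Percent of the ribosomal protein genes tested that were called higher (above 0) or lower (below 0) than in all other nuclei in each cluster, with black marks for the percent of all genes tested that were called the same way. In the 15 clusters on the right at least 81 members were lower, well past the 33.4% to 70.4% of all genes. The bars of the gonad and of mixed clusters 2, 8, 9, 16, 19 and 22 depend on the scaling.

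Outside the gonad and the clusters whose counts turned on the scaling, 3 genes left the pattern of their cluster. RpL22 (FBgn0015288, X:762560-765130, minus strand), a large subunit protein that binds RNA and in Drosophila also associates with histone H1, was the one member not lower in hemocytes (log2 fold change -0.00, SE 0.14, edgeR adjusted p = 0.998), myoblasts (0.08, SE 0.15, adjusted p = 0.663), trachea (-0.39, SE 0.17, adjusted p = 0.0707) and ISCs (0.34, SE 0.16, adjusted p = 0.0846). Its side in these clusters moved with the scaling: without scaling factors it was called higher in hemocytes (0.37, adjusted p = 0.0417), myoblasts (0.69) and ISCs (0.95), and in trachea it was called lower among nuclei whose barcode occurs in 1 library (-0.48, adjusted p = 0.0320). In the main fit RpL22 was also the one member not higher in mixed cluster 16 (0.63, edgeR adjusted p = 0.0603). With DESeq2's size factors or TMM over all genes, more members were not called there. RpS15Ab was the one not higher in fat body clusters 4 (0.21, SE 0.37, adjusted p = 0.638) and 13 (-0.01, SE 0.34, adjusted p = 0.976), and RpS5b, tested in few clusters, was the one not lower in neuron clusters 10 and 20. In the gonad 10 members did not pass, among them RpS5a (0.50, adjusted p = 0.212), RpL22 (0.52, adjusted p = 0.0976) and RpS29 (0.78, adjusted p = 0.0985).

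How evenly a member followed the others was measured as the SD, over the 28 clusters, of its log2 level relative to all nuclei after the median member of each cluster was taken away. A relative level of 1 thus means that the gene stood 2-fold above where the median member would put it. These levels rank the members and are a description. The median SD of the 82 ranked members was 0.235, with 0.114 and 0.411 at the 10% and 90% quantiles. The most even were RpL17 (0.080), RpL26 (0.085), RpL34b (0.091), RpL19 (0.092) and RpL23 (0.097), all of the large subunit. Across clusters the log2 level of a member correlated with that of the sum by 0.990 in the median and by 0.95 or more in 78 of 82, with RpL22 (0.552), RpS15Ab (0.702), RpL24-like (0.904) and RpL34a (0.933) below. The 10 most uneven were RpS15Ab (1.05), RpL22 (1.03), RpS29 (0.668), RpLP1 (0.620), RpL24-like (0.530), RpL34a (0.480), RpS20 (0.423), RpL3 (0.415), RpS24 (0.412) and RpS26 (0.400), and RpL38 (0.398) and RpL37a (0.389) came next.

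Relative to the median member, RpL22 was high in clusters with a low share, although it was called lower than in the other nuclei in 11 of these 15 clusters and higher in 0 of them. Its level in ISCs was 992 CPM in the lowest library, 1311 in the median and 1641 in the highest, where the median member had a mean of 330 CPM, a relative level of +2.06. In myoblasts it ran from 895 over 1049 to 1328 CPM (relative level +1.95), in trachea from 531 over 649 to 1012 CPM (+1.70) and in hemocytes from 716 over 874 to 1043 CPM (+1.63). In each of these clusters, and in the disc clusters 0, 1 and 5, it stood above its place among the members in 8 of 8 libraries. Among fat body nuclei of cluster 4 its CPM was no lower, from 1038 over 1085 to 1243, but the median member stood at 2825 CPM, a relative level of -1.09. There and in fat body cluster 13 (-1.05) it was below its place in 7 of 7 libraries. The CPM of RpL22 in ISCs and in fat body thus overlapped while the median member differed several-fold. A long noncoding RNA gene, CR42491, overlaps RpL22 on the same strand and 2 small nucleolar RNA genes lie inside it, and reads from these were not told apart from those of RpL22.

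**Figure D4:**
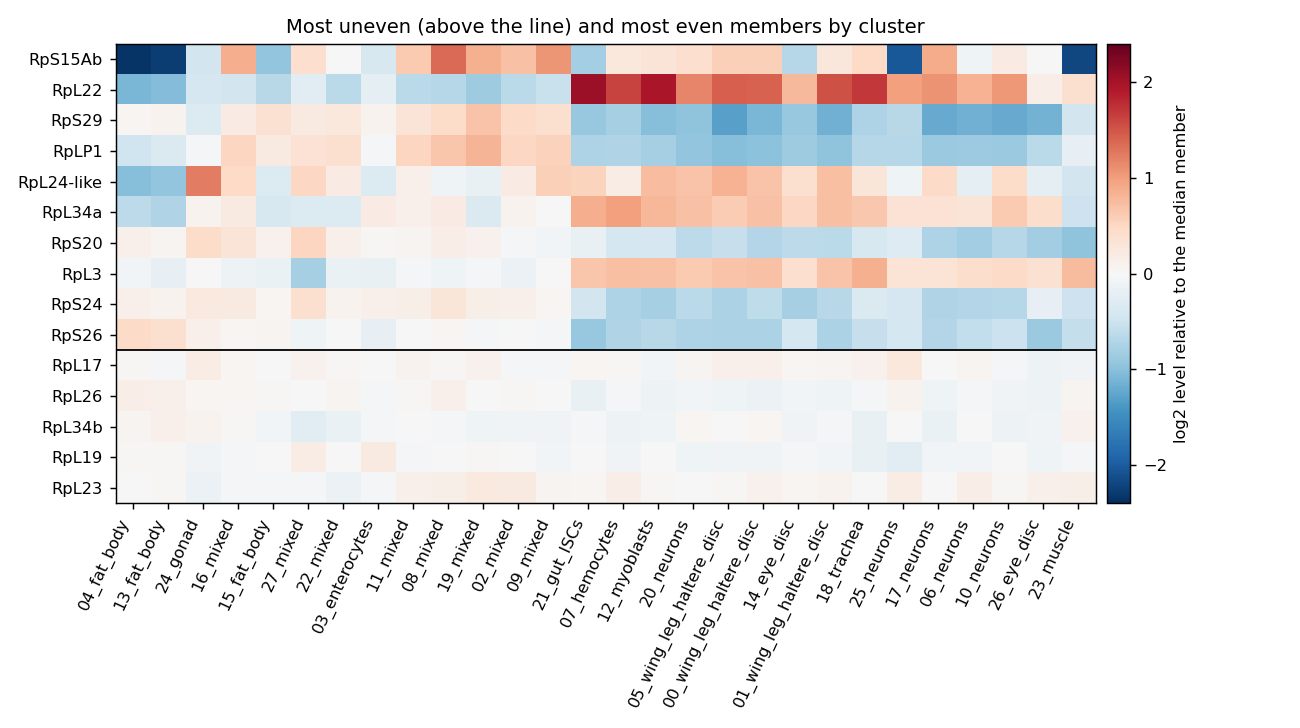
Log2 level relative to the median member of the cluster for the 10 most uneven members (above the line) and the 5 most even (below it) in the 28 clusters, ordered by ribosomal protein share. RpL22 is blue in the fat body (-1.09 in cluster 4) and red in ISCs (+2.06), RpS29 and RpLP1 run the opposite way, and the 5 even members stay near 0 throughout.

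The large subunit held more of the uneven members that were relatively high in the low-share clusters. RpL3, which lies near the peptidyl transferase centre of the ribosome, had its highest relative level in trachea (+0.85, above its place in 8 of 8 libraries), where it ran from 480 over 631 to 909 CPM. In disc cluster 0 it ran from 587 over 662 to 819 CPM, again high in 8 of 8 libraries, and its lowest relative level was -0.79 in mixed cluster 27. RpL34a was highest in hemocytes (72.2, 136 and 160 CPM for the lowest, median and highest library, relative level +0.98, 8 of 8 libraries) and lowest in fat body cluster 13 (-0.73, 0 of 7 libraries above).

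RpLP1, a stalk protein of the large subunit that helps to recruit the elongation factors, went the other way. In disc cluster 5 it ran from 156 over 196 to 326 CPM (relative level -1.01, below its place in 8 of 8 libraries). In mixed cluster 19 it ran from 781 over 1746 to 2166 CPM (+0.81, above in 8 of 8), and in mixed cluster 8 from 1390 over 1610 to 1810 CPM (+0.66, above in 8 of 8). The CPM ranges of disc cluster 5 and of both mixed clusters did not overlap.

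Of the small subunit, RpS29 was also relatively low in discs and relatively high in mixed cluster 19. It ran from 71.8 over 111 to 186 CPM in disc cluster 5 (relative level -1.31, below its place in 8 of 8 libraries) and from 72.8 over 94.1 to 139 CPM in neuron cluster 10 (-1.21, below in 8 of 8), but from 806 over 937 to 1414 CPM in mixed cluster 19 (+0.68, above in 8 of 8). Among nuclei of fat body cluster 4, where it ran from 2611 over 2921 to 3099 CPM, it kept its place among the members, above it in 5 of 7 libraries. RpS20, RpS24 and RpS26 were likewise relatively low in the low-share clusters. RpS20 was lowest in muscle (-0.97, below in 7 of 7), RpS24 in eye disc cluster 14 (-0.80, below in 8 of 8) and RpS26 in ISCs (-0.91, from 55.4 over 162 to 265 CPM, below in 8 of 8). RpS26 was highest in fat body cluster 4, from 2795 over 3430 to 3775 CPM (+0.46, above in 7 of 7).

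The sum of the members was also used as the size of each library, so that the test asks which genes change within the set. On that scale 100 calls were higher and 159 lower of the 2299 (29.7% and 26.5% of all genes). This scaling centres the members near 0 and moves the other genes away. That members were called less often than all genes is thus set by it and is no result. Of the 83 members tested 35 were never called. RpL22 was called higher in 12 clusters and lower in 10, RpS29 higher in 4 and lower in 13, and RpLP1 higher in 6 and lower in 13. This makes 58 of the 259 calls, on genes already ranked uneven from the same counts. Between the subunits themselves no difference passed. The ratio of summed large to summed small subunit counts ran from 1.43 in mixed cluster 27 to 1.62 in eye disc cluster 26, and 0 of the 28 clusters passed against their other nuclei (smallest exact permutation adjusted p = 0.109, for disc cluster 1 with a log2 difference of 0.04 ± 0.020 and myoblasts with 0.05 ± 0.026, both positive in 8 of 8 libraries). This test too can pass only if several clusters reach the smallest p together, so the ratios are not shown to be alike.

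By their symbols, 11 members have a second, usually minor gene beside them, and RpL24-like is paired with RpL24 by name only. RpS5b, a small subunit protein known in flies from the germline, was at 6.94 CPM over all nuclei, 1.07% of its pair with RpS5a. In the gonad cluster it made 22.8% of the pair, at 346 ± 178 CPM (SD, n = 6), with 5 of 6 libraries above 0, a highest library of 490 CPM and 0 in library 7, the one with 12 nuclei. Against all other nuclei it was higher by a log2 fold change of 6.84 (SE 0.49, edgeR adjusted p = 8.20e-09). RpL24-like, the homolog of a yeast factor of large subunit assembly, rose from 6.52% of its pair with RpL24 over all nuclei to 14.8% in the gonad, where it ran from 133 over 348 to 459 CPM (relative level +1.24, above its place in 6 of 6 libraries), and was lowest in fat body cluster 4 (-1.03, 0 of 7). RpL34a made 18.8% of its pair with RpL34b over all nuclei, 33.2% in hemocytes and 11.4% in fat body cluster 13.

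RpS15Ab, a gene without introns, made 4.45% of its pair with RpS15Aa and 9.74% in mixed cluster 8, where it ran from 41.1 over 57.3 to 86.7 CPM. Its level in fat body cluster 4 stayed at 5.18 to 30.5 CPM with a median of 13.8, a relative level of -2.36. RpS14b made 19.6% of its pair with RpS14a, from 8.72% in neuron cluster 25 to 42.3% in mixed cluster 27. The other 6 minor copies were nearly absent. RpS19b made 0.395% of its pair, RpL22-like 0.228%, RpL37b 0.149%, RpS10a 0.0903%, RpS28-like 0.0544% and RpL10Aa 0.0431%, each at 2.58 CPM or less over all nuclei, so that shares of them in single clusters rest on few counts. RpL22-like and RpS19b, also known from the germline, had 1.49 and 6.84 CPM in the gonad, each in 2 of 6 libraries. Where the copies are near-identical their reads could be split or lost in counting, so these shares are uncertain.

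The length and structure of the genes were set beside the relative level in the low-share clusters, as a description over 82 genes of 1 organism. Spearman's correlation was 0.304 with gene length, 0.250 with exonic and 0.251 with intronic length. The 28 members that host small nucleolar RNAs had a median relative level of +0.05 there, with 17 above 0, and the 54 others of -0.04, with 22 above 0. RpL22 and RpL3, which host 2 and 4 of them, were relatively high in the low-share clusters (medians +1.17 and +0.66), but RpS29, which hosts 1, was low (-1.02).

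Genes of the wider translation machinery were described from lists. The 5 genes outside the members most like their sum over the 28 clusters, by Pearson's correlation of log2 levels, were eEF1gamma (0.983), eEF1alpha1 (0.974), Rack1 (0.971), Nacalpha (0.971) and sta (0.966). Rack1 and sta, whose proteins sit on the small subunit, were named outside the rule and rose with the members in fat body cluster 4, by 2.05 (SE 0.21) and 2.17 (SE 0.21) on the log2 scale (edgeR adjusted p = 1.27e-08 and 5.39e-09). RpLP0-like, whose yeast counterpart acts in ribosome assembly, correlated by 0.380 and stood at -0.81 there (SE 0.48, adjusted p = 0.136), but rose in the gonad by 2.13 (SE 0.28, adjusted p = 1.69e-05).

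Translation factors rose or fell with the members in fat body cluster 4 and disc cluster 0, with smaller median changes. Of 34 tested in fat body cluster 4, 21 were higher and 5 lower (21.6% and 45.8% of all genes), with a median log2 fold change of 1.26 against 2.70 for the members, and 17 were higher and 11 lower with DESeq2's size factors. The elongation factors eEF1alpha1 and eEF2 rose by 2.42 (SE 0.22) and 2.24 (SE 0.21). In disc cluster 0, 2 were higher and 27 lower (23.8% and 43.3% of all genes), with a median of -1.17 against -1.87. The order was different in mixed clusters, where the factors' median was above that of the members in clusters 2 (1.12 against 0.66), 9 (1.08 against 0.52), 8 (0.44 against 0.20), 11 (0.27 against -0.06) and 19 (0.16 against -0.36). In cluster 11, 4 of 34 factors were higher and 4 lower (11.6% and 42.7% of all genes). In cluster 19 they were 3 and 4 (9.76% and 40.8%). The signs of medians this small can move with the scaling, as the member median of cluster 19 was -0.80 with DESeq2's size factors. One isoform gene went its own way in neurons: eEF1alpha2, known from the nervous system, rose by 4.09 in cluster 10 (SE 0.18, edgeR adjusted p = 2.05e-12) and 2.27 in cluster 6 (SE 0.23), where eEF1alpha1 fell by 2.33 and 2.22.

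Genes of ribosome biogenesis went against the members in fat body clusters 4 and 13 and in ISCs. The list had 1 of 30 higher and 17 lower in fat body cluster 4 (21.6% and 45.8% of all genes), with a median of -1.87, and in cluster 13, 1 of 29 was higher and 18 lower (23.5% and 46.6% of all genes), with a median of -1.68. The third fat body cluster, 15, had 0 of 31 higher and 8 lower (16.2% and 37.9% of all genes), with a median of -0.42 against -0.57 for all genes. Fib, the fibrillarin of the nucleolus, fell in cluster 4 by 2.87 (SE 0.57, edgeR adjusted p = 0.000132), Nop56 by 3.59 (SE 0.62) and the transcription factor gene Myc by 4.78 (SE 0.37). In ISCs, where the members were low, 11 of 31 were higher and 2 lower (12.1% and 35.5% of all genes), with a median of 0.54, and Fib rose by 0.82 (SE 0.26) and Myc by 1.03 (SE 0.12). Myoblasts had 10 of 31 higher and 1 lower (9.28% and 39.1% of all genes, median 0.25), and disc cluster 0 had 10 of 31 higher and 2 lower (23.8% and 43.3%, median 0.13). In the gonad both groups were high, with 26 of 32 biogenesis genes higher and 1 lower (25.9% and 18.3% of all genes, median 1.70), and Fib rose by 2.17 (SE 0.29). In muscle 0 of 29 were higher and 28 lower (5.79% and 70.4% of all genes). These directions in fat body clusters 4 and 13, ISCs, gonad and muscle were the same under DESeq2's size factors, TMM over all genes, library totals without scaling and the replicate block.

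Of the 72 mitochondrial ribosomal proteins, encoded in the nucleus for the separate ribosome of the mitochondrion, 62 of 72 were higher and 1 lower in the gonad (median 1.67), and 59 of 72 were higher and 1 lower in mixed cluster 16 (25.9% and 18.3% of all genes in the gonad, 33.5% and 28.2% in cluster 16). Of 70 tested in fat body cluster 4, 19 were higher and 2 lower with a median of 0.47, where 21.6% and 45.8% of all genes were, but with DESeq2's size factors 3 were higher and 14 lower with a median of -0.39, so their side in the fat body depends on the scaling. In the muscle 0 of 60 were higher and 51 lower (5.79% and 70.4% of all genes).

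**Figure D5:**
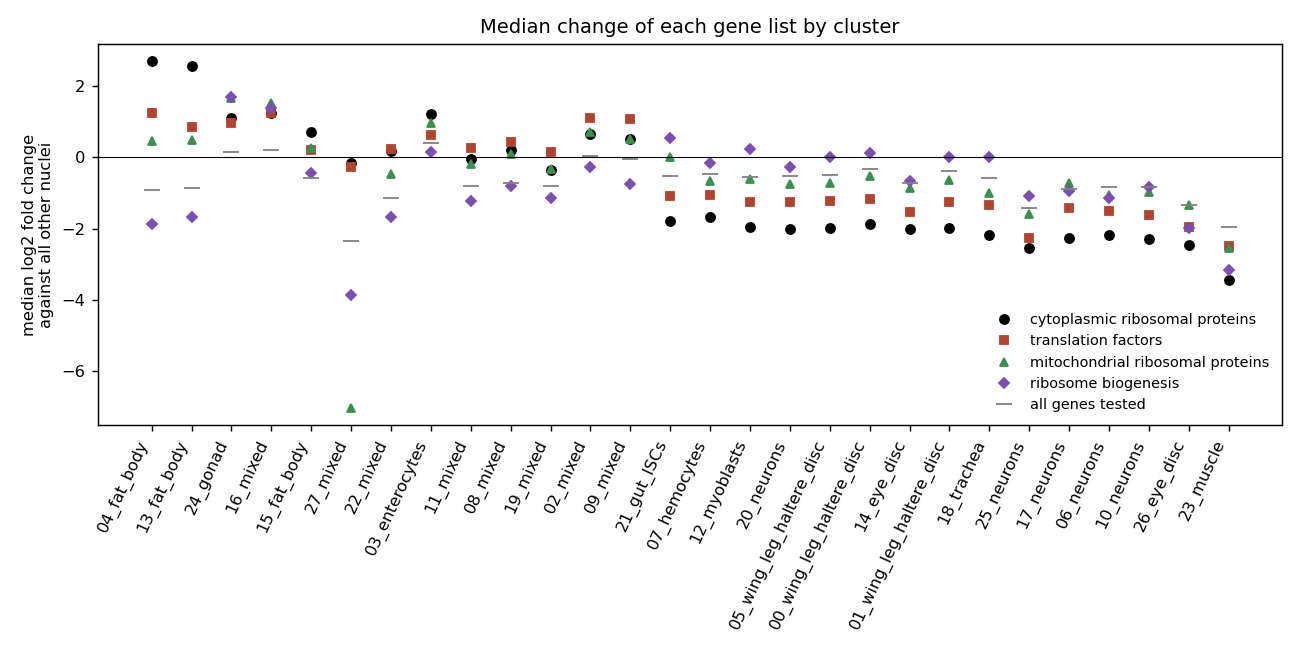
Median log2 fold change against all other nuclei, by cluster, of the cytoplasmic ribosomal proteins (black), translation factors (red), mitochondrial ribosomal proteins (green) and ribosome biogenesis genes (violet), with grey bars for all genes tested; clusters are ordered by ribosomal protein share. The members of fat body cluster 4 stand at 2.70 and the biogenesis genes at -1.87, in disc cluster 0 at -1.87 and 0.13, and the green point at -7.02 is mixed cluster 27, with 3 libraries.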

How the data were processed

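The files held single-nucleus RNA-seq of 8 libraries of 1 group. The authors counted UMIs with Cell Ranger 7.1.0 on BDGP6, subtracted ambient RNA with DecontX, removed doublets with DoubletFinder, joined the libraries with Harmony and made 28 Leiden clusters, and no doublet caller was run again here. The deposited values are expected counts, estimated UMIs after that subtraction and not scaled, with 1 table of barcodes and cluster names. Libraries are named by the number in the barcode, which was not matched to single samples.

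Shares are the members' counts over all counts, for clusters with at least 10 nuclei in a library. Exact sign-flip tests paired the cluster with the other nuclei of each library. For edgeR 4.0.16 (R 4.3.3, limma 3.58.1), counts were summed per library over the cluster and over the other nuclei, which gives 2 sums per library, and rounded. TMM used genes expected at 10 or more counts in the smallest sum, a restriction set after seeing the data: simulated at the depth of the muscle cluster, TMM over all genes, kept as an alternative, moved unchanged genes further from 0. The SE beside an edgeR log2 fold change was worked back from the test. It is the absolute change over the square root of the F statistic and no fitted standard error. The block alternatives pair the 2 sums by their library. Their deviations correlated with a median of 0.018 to 0.204 over the clusters for the same library, against -0.054 to 0.006 for others. Each library is 1 pool of larvae, so SDs hold biological and technical spread.

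Named were the 5 members with the highest CPM, the 10 most uneven and 5 most even (pseudocount 1 CPM, 10 CPM or more), every member with a partner by symbol and every member under 10 CPM. RpL38 and RpL37a, just outside, list genes and members that left the pattern were named after their values were seen. Members and lists were chosen with earlier results of these data known. Of the lists, 34 of 35 translation factors and 33 of 38 biogenesis genes were in the matrix. DESeq2 1.42.0, numpy 2.4.6, pandas 2.3.3, scipy 1.17.1 and matplotlib 3.10.9 were also used.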

Additional observations from a re-analysis of the deposited data

Results flagged for a closer look

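In 5 of the 29 groups tested for a sample far from the others, 1 library stood apart in the ribosomal protein share, where chance flags about 1 group in 20. Enterocytes of library 4 had 28.6%, with the next library at 8.20%, and held 1508 nuclei, with 1.31% mitochondrially encoded counts and 3.43% fat body marker counts. Mixed cluster 11 of library 4 had 12.1%, with the next at 5.81% and 1.77% mitochondrially encoded counts. Mixed cluster 19 of library 8 had 7.67%, with the next at 5.97%. Neuron cluster 20 of library 7 had 3.61%, with the next at 2.71%. Eye disc cluster 26 of library 1 had 2.61%, with the next at 1.95%.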

How the results depend on the processing

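The number of clusters with a higher share, 6, was 11 when the 20 most abundant other genes of the cluster were left out of the total and 0 among nuclei with no mitochondrial count (chosen after seeing the data), and 5 to 6 when a library was left out. The number with a lower share, 15, was 0 among the latter nuclei and 14 to 15 with a library left out. Without the 20 genes the differences of clusters 2, 8, 9, 11 and 19 turned to 6.41, 6.24, 5.96, 4.05 and 3.69 percentage points. Without fat body nuclei in the comparison, that of cluster 11 turned to 1.23. With only nuclei without mitochondrial counts in the cluster and in its comparison, the differences of clusters 7, 12, 17 and 20 turned to 0.4656, 0.722, 0.643 and 0.131. Clusters 17 and 20 had too few libraries for a test there. Member calls higher, 489, became 100 with the members' sum as library size, 305 with TMM over all genes (chosen after seeing the data) and 338 to 538 with a library left out. Calls lower, 1240, became 159 with the members' sum, and 1229 to 1287 with a library left out. With the replicate block, which pairs both sums of a library, there were 467 and 1233. Among clusters it moved a count past 1.5 times in clusters 15 and 19 (given above), 3 and 22 (1 call to 0) and 11 (2 lower to 4), and it changed no other count by as much. The difference of deeper and shallower nuclei ran from -0.377 to -0.239 with a library left out, at a permutation p of 0.0625 without library 1, 2, 5, 7 or 8, where the test has fewer libraries. With the members' sum as library size, RpL22 turned to 1.29, 1.38, 1.26, 1.40 and 1.53 in clusters 0, 1, 5, 7 and 18 and to -1.28 and -1.22 in clusters 4 and 13, as that size moves with the members. It also turned to 0.37 in cluster 7 without scaling. On the former scale RpL24-like turned to -1.23 in cluster 4, RpL3 to 0.75 in cluster 18, RpL34a to 0.86 in cluster 7 and -0.83 in cluster 13, and RpS15Ab to -2.58 in cluster 4. The subunit ratio gave 0 clusters under all 12 alternatives run, and 8 to 10 of the 10 uneven members were kept. Other causes were not tested, and counts of low members limit their clusters.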
